A study of Mus musculus with 6 samples.

Results

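Transcripts of respiratory complex I, the NADH dehydrogenase of mitochondria, were followed in mouse multiple myeloma cells with and without insulin-like growth factor 1 (IGF-1). The genes were chosen by name. Every probe set whose annotated symbol begins with Nduf was taken, symbols beginning with Ndufaf formed the class of assembly factors, and all other symbols formed the class of subunits. Each gene was represented by the probe set that was brightest over all arrays, without regard to the treatment. This gave 39 genes, 34 subunits and 5 assembly factors, of 12393 genes that had a probe set of their own. They were carried by 74 of 22690 probe sets, and a further 7 probe sets that named several genes were set aside. Ndufa11, Ndufb4 and Ndufs6 had only such probe sets and so are not among the 39 genes.

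The cells are labelled as malignant plasma cells of bone marrow, the antibody-secreting cells from which myeloma arises. The IGF-1 group held 3 arrays of cells kept for 12 h in serum-free medium with 100 ng/ml IGF-1, and the control group held 3 arrays of cells kept as long in the same medium without it. No allele, line or strain is given in the labels, and serum withdrawal was common to both groups. The labels do not tell if the 3 arrays of a group came from different cultures or animals. A p-value therefore measures only how these arrays spread, and that spread may be technical. Levels are linear MAS5 signals of 1-colour Affymetrix arrays, and a signal can be set against other arrays of the same probe set but not against another gene.

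Complex I takes electrons from NADH, passes them along a chain of iron-sulphur clusters to ubiquinone and pumps protons across the inner mitochondrial membrane. Its peripheral arm has an NADH-binding module and a ubiquinone-binding module, and its membrane arm has a proximal part next to the peripheral arm and a distal part. The core subunits do the redox chemistry and the pumping, the accessory subunits surround them, and assembly factors help to build the enzyme without staying in it. The Nduf genes are nuclear. The membrane-embedded core subunits are encoded in mitochondrial DNA and were not analysed here. IGF-1 acts through its receptor, AKT and ERK signalling on growth and nutrient use.

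Promoter sequence is shown for 6 genes, the 4 that passed the test and 2 that had the lowest differences of the assembly factors and of the subunits. Each line gives the 200 bases before the annotated start, 5′ to 3′ on the strand of the gene, from RefSeq (GRCm38.p6). Capitals mark matches to the motifs of factors known for nuclear genes of the respiratory chain, GCGCA, any base and GCGC for NRF1, and CCGGAAG for GABP and other ETS factors. AAGATGGC for YY1 was searched too and had no match in the stretches shown.
Ndufa12, chr10:94198835-94199034, plus strand: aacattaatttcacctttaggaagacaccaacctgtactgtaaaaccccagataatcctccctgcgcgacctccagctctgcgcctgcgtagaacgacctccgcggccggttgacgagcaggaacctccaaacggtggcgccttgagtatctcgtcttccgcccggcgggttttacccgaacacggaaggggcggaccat
Ndufa5, chr6:24527691-24527890, minus strand: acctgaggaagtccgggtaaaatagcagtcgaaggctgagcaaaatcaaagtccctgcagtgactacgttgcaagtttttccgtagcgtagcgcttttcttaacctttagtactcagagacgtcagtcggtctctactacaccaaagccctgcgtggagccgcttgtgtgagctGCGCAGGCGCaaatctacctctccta
Ndufc2, chr7:97399803-97400002, plus strand: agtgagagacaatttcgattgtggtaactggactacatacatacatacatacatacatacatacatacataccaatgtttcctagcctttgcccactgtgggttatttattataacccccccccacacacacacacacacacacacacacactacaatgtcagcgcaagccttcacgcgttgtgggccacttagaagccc
Ndufs8, chr19:3912775-3912974, minus strand: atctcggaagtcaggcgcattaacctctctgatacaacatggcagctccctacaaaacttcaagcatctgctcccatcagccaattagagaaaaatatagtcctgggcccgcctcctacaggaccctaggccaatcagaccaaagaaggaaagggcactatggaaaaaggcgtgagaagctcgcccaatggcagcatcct
Ndufs3, chr2:90904722-90904921, minus strand: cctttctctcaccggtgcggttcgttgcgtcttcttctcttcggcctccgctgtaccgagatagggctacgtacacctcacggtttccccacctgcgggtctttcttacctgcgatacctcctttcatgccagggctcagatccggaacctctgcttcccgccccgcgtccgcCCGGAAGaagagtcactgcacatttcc
Ndufaf4, chr4:24897883-24898082, plus strand: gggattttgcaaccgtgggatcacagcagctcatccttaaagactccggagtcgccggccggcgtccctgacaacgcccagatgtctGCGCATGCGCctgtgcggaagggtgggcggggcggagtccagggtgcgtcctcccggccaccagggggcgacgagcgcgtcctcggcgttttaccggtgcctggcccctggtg

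RefSeq windows, of 250 bases before to 50 after the start, were found for 36 of the 39 genes. Both strands were searched, and the motifs could overlap. The NRF1 motif stood in 6 of these 36 windows (16.7%, against 4.82% of the windows of all 27025 genes), among them Ndufa5 at position -26 and Ndufaf4 at position -113, each counted from the start to the left end of the match. The ETS motif stood in 5 windows (13.9%, against 9.14% of all), and Ndufs3 had matches at positions -27 and 2. The YY1 motif stood in 6 windows (16.7%, against 2.87% of all), in each case after the start, as in Ndufs7 at position 25. Ndufa12 and Ndufc2 had no match to any of the 3 motifs, and the match in Ndufs8, to the ETS motif at position 16, lay after the start. The 27025 genes include many that were not tested here, so these shares do not compare genes of like expression. These are matches of letters, and binding was not measured.

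Transcripts of complex I were slightly higher with IGF-1 for most subunits, but few differences passed the test. Ndufa12, Ndufa5, Ndufc2 and Ndufs8 rose, each by less than 0.5 on the log2 scale, and no gene fell. Signals were tested as log2(signal + 15.57) with limma across all 11313 probe sets whose mean signal exceeded 53.6, at an adjusted p below 0.05. Of the 39 genes 38 entered the test, and 1, Ndufaf7, lay below that signal. Of the 38, 4 rose, 0 fell and 34 did not pass, a share of 10.5% called. Among all 6895 genes tested, 15.1% passed in either direction, 7.05% higher and 8.05% lower with IGF-1. The share of complex I genes that passed is thus near that of genes at large. That background was not matched for brightness. With the filter raised to a mean signal of 136.9, 20.5% of all probe sets tested passed, and 5 of 33 tested subunits. In whole cultures, fewer cells of a type and less RNA per cell cannot be told apart.

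The sign of the differences was more one-sided than the calls. Of the 38 tested genes 29 were higher with IGF-1 and 9 lower, whereas 48.7% of all genes tested were higher. Complexes II to V shared this trait, with 29 of 39 tested genes higher and 10 lower. The median difference of the 38 genes was 0.14, beside -0.01 for all genes tested. In limma 11 of the 38 genes were higher at an unadjusted p below 0.05, beside 14.4% of all genes tested, and 1 was lower. In 13 of the 38 genes every IGF-1 array lay above every control array, and in 0 every IGF-1 array lay below, beside 17.1% and 18.2% of all genes tested. The median of the 38 genes stayed above that of all probe sets tested under every alternative of processing tried, by 0.11 to 0.20.

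**Figure D1:**
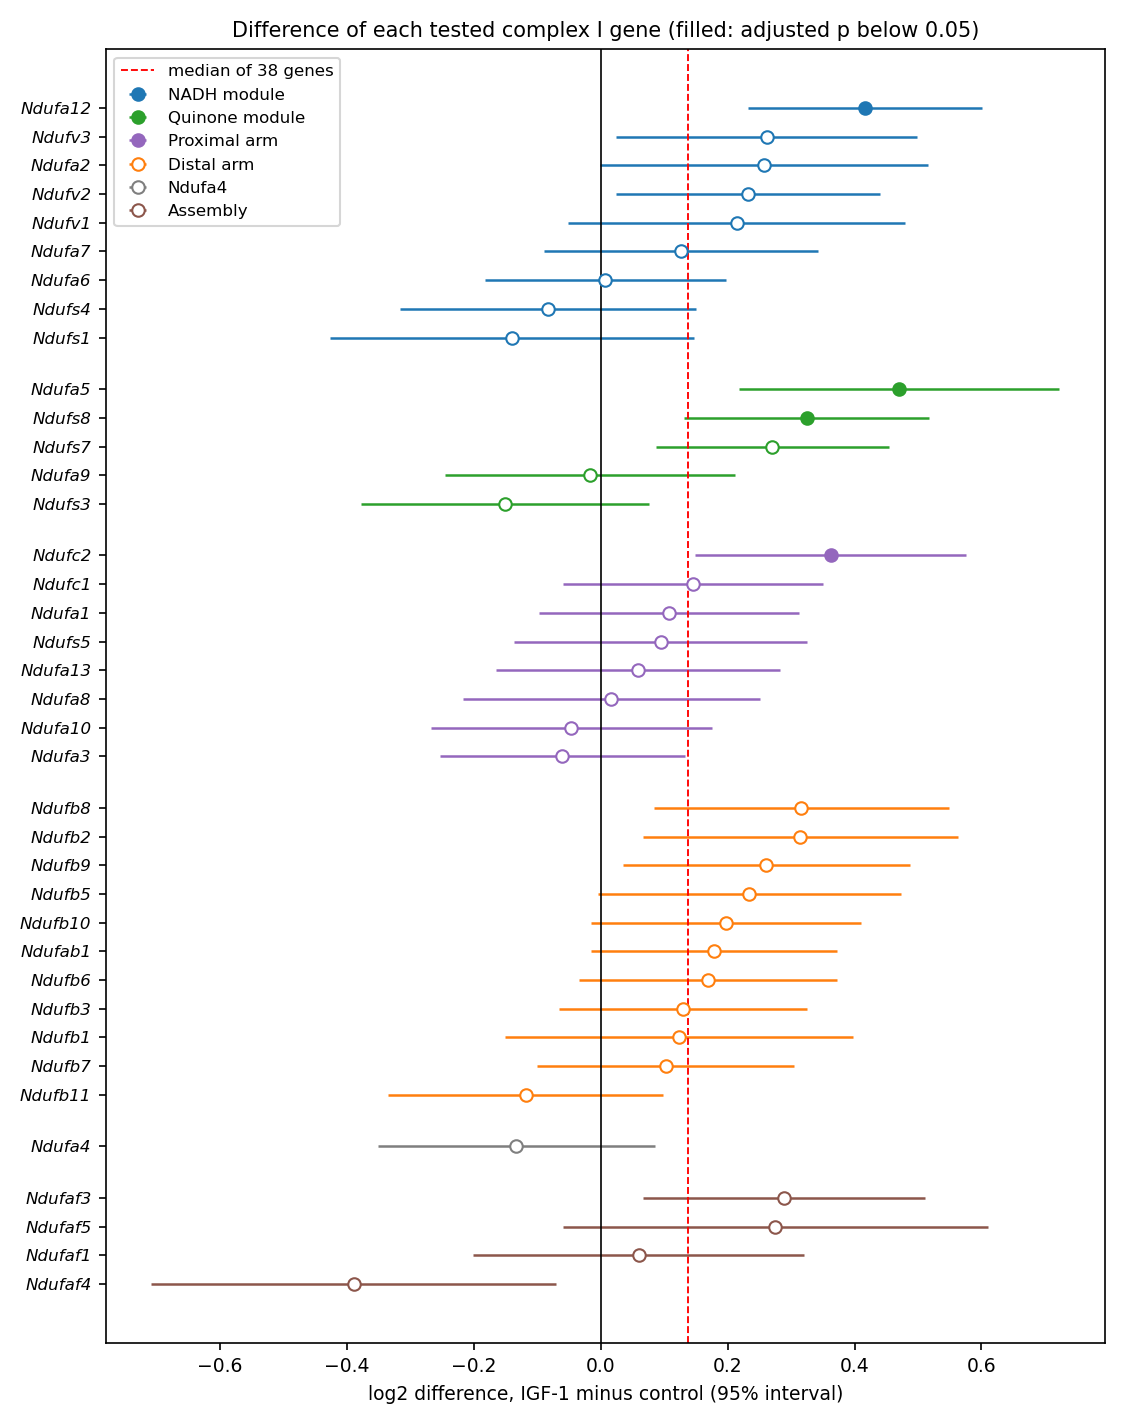
Log2 difference (IGF-1 minus control, horizontal axis) of each of the 38 tested complex I genes with its 95% interval from limma, grouped by part of the enzyme; filled points passed the test and the dashed line is the median, 0.14. The 4 filled points are Ndufa12, Ndufa5, Ndufc2 and Ndufs8, and 29 of the 38 points lie right of zero.

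**Figure D2:**
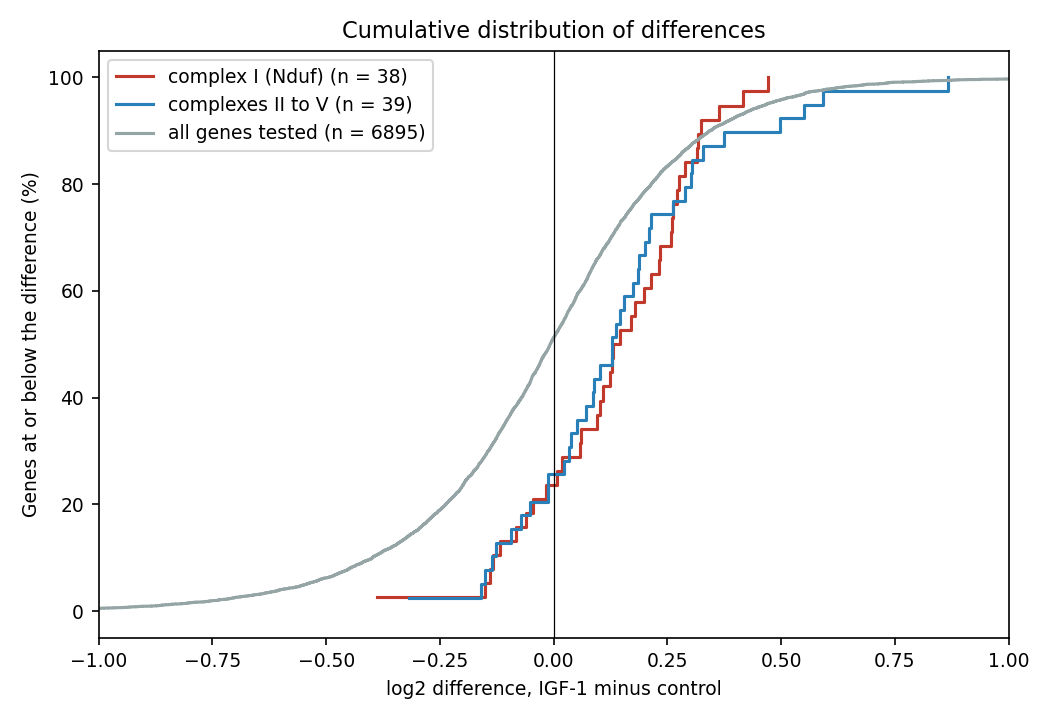
Cumulative percentage of genes (vertical axis) by log2 difference, IGF-1 minus control (horizontal axis, from -1 to 1), for 38 complex I genes, 39 genes of complexes II to V and 6895 genes tested. The curves of both respiratory chain groups lie right of the curve of all genes through the middle of the range, with medians of 0.14, 0.13 and -0.01.

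Among subunits of the NADH-binding module, Ndufa12 rose and the other 8 tested did not pass, beside 7.05% of all genes tested that rose. Ndufa12 encodes an accessory subunit of the peripheral arm that is related to the assembly factor Ndufaf2. Its signals were 1009, 1005 and 939 on IGF-1 arrays, against 741, 737 and 722 on control arrays. All IGF-1 arrays were higher than all control arrays, and the spread was small within both groups. The log2 difference was 0.42 ± 0.08 (SE, adjusted p = 0.00975), 1.33-fold on this scale. It passed with each of the 6 arrays left out in turn (adjusted p 0.0214 to 0.0448). All 3 of its tested probe sets were higher and 2 passed, the second with a difference of 0.32 (adjusted p = 0.0334). All 3 are of types that can match several transcripts (_x_at or _s_at).

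Ndufv1 encodes the core subunit that binds NADH and flavin mononucleotide. It had signals of 741, 766 and 977 in IGF-1 cells, against 779, 672 and 672 in control cells. The groups overlapped, with IGF-1 replicate 3 far above the others. Its difference was 0.21 ± 0.12 (adjusted p = 0.263), and all 3 of its tested probe sets were higher without passing. Ndufv2, an iron-sulphur core subunit beside Ndufv1, had 948, 862 and 899 with IGF-1 and 754, 711 and 837 without. These groups did not overlap, but the difference of 0.23 ± 0.09 missed the threshold (adjusted p = 0.124). Ndufs1, the largest core subunit of the peripheral arm and carrier of several iron-sulphur clusters, had 242, 238 and 216 with IGF-1 and 309, 252 and 218 without. Its groups overlapped and its difference was -0.14 ± 0.13 (adjusted p = 0.513, 95% interval -0.43 to 0.15).

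The remaining subunits of the NADH module lay between these. Ndufv3, an accessory partner of Ndufv1 and Ndufv2, differed by 0.26 ± 0.11 (adjusted p = 0.128) and Ndufa2, a small subunit with a thioredoxin-like fold, by 0.26 ± 0.12 (adjusted p = 0.166). Ndufa7 differed by 0.13 over its brightest probe set, and all 5 of its tested probe sets were higher, none past the threshold. For Ndufa6, a subunit of the LYR family that binds the acyl carrier protein, the difference was 0.01 with an interval of -0.18 to 0.20. For Ndufs4, whose loss in mice gives a model of Leigh syndrome, it was -0.08 with an interval of -0.32 to 0.15. The intervals of both include zero and reach beyond the median of the 38 genes.

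In the ubiquinone-binding module 2 of 5 tested subunits, Ndufa5 and Ndufs8, rose, and 3 did not pass. Among all genes tested 7.05% rose, and 5 subunits are too few to set the module apart. Ndufs8 is a core subunit with iron-sulphur clusters on the way to ubiquinone. Its signals were 1634, 1519 and 1585 with IGF-1, against 1190.1, 1233 and 1354 in controls. The groups were apart, and the difference was 0.32 ± 0.09 (adjusted p = 0.0323), 1.25-fold. All 6 of its tested probe sets were higher, and the brightest was the 1 that passed. That probe set is of the type that can match several transcripts (_x_at). Without the _x_at and _s_at types the gene differed by 0.23 and did not pass (adjusted p = 0.152). The mean of its probe sets, at 0.24, did not pass either (adjusted p = 0.105). The call was lost with any single array left out except control 3 (highest adjusted p 0.0947).

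Ndufa5, an accessory subunit of the peripheral arm, had the largest difference of the 38 genes. It had signals of 256, 277 and 278 in IGF-1 cells, against 219, 170.3 and 185 in control cells. No control array reached the lowest IGF-1 array, and the difference was 0.47 ± 0.11 (adjusted p = 0.0217), 1.39-fold. The second tested probe set of the gene was higher by 0.11 and did not pass (adjusted p = 0.594). With control 2 or 3 or with IGF-1 array 2 or 3 left out, the brightest probe set did not pass either (highest adjusted p 0.0766).

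Ndufs7 carries the last iron-sulphur cluster before ubiquinone. It had 1110.5, 1114 and 1047 with IGF-1 and 882, 928 and 894 without, so every IGF-1 array lay above every control array. The difference of 0.27 ± 0.08 lay just outside the threshold (adjusted p = 0.0518). Ndufs3, a core subunit that forms part of the scaffold of this module, had 1065, 949 and 1106 in IGF-1 cells, against 1045, 1277 and 1151 in control cells. The groups overlapped and the difference was -0.15 ± 0.10 (adjusted p = 0.366), the lowest of any subunit. Ndufa9, an accessory subunit near the ubiquinone channel, differed by -0.02, with an interval of -0.25 to 0.21.

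Among the 6 nuclear core subunits described here, Ndufs8 was the 1 that rose, 0 fell, and 4 of the 6 were higher, with a median of 0.22. The 27 accessory subunits had a median of 0.13, with 3 that rose, 0 that fell and 22 that were higher. Among all genes tested 7.05% rose, 8.05% fell and 48.7% were higher. No test was made of core against accessory subunits.

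**Figure D3:**
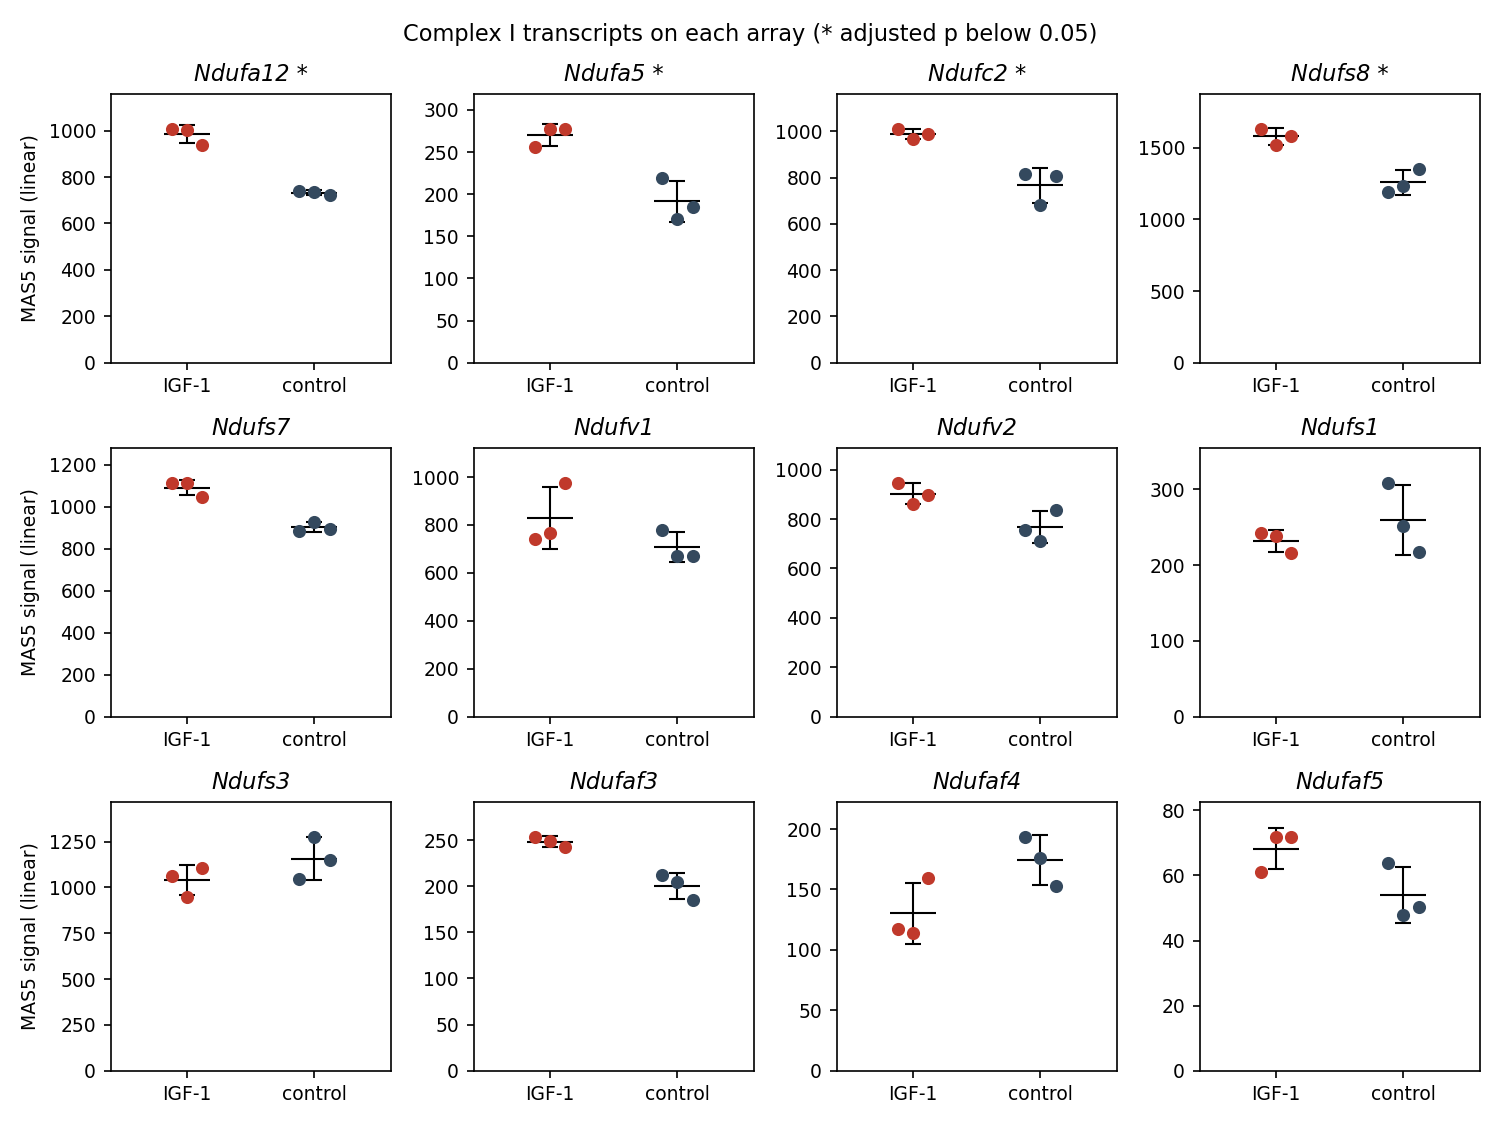
MAS5 signal (vertical axis, linear, from 0) of 12 complex I genes on each array, IGF-1 left and control right, with mean and SD of 3 arrays as bars; an asterisk marks an adjusted p below 0.05. The IGF-1 arrays lie above all control arrays for the 4 marked genes and for Ndufs7, Ndufv2 and Ndufaf3, and the groups overlap for the others.

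Beside 7.05% of all genes tested, 1 of 8 tested subunits of the proximal membrane arm rose. This was Ndufc2, a membrane-spanning accessory subunit, with signals of 1012, 965 and 989.7 on IGF-1 arrays, against 817, 681 and 807 on control arrays. The groups were apart, and the difference was 0.36 ± 0.10 (adjusted p = 0.0311), 1.29-fold. The other probe set of the gene, nearly as bright, went the opposite way and did not pass, at -0.16 ± 0.15 (adjusted p = 0.518). The probe set that passed is of the type that can match several transcripts, and the gene's mean over both was 0.10 (adjusted p = 0.566). Its call was also lost without control 2 or without any 1 IGF-1 array (highest adjusted p 0.0909).

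Ndufa1, a small membrane subunit of the X chromosome, had the brightest probe set of the family. It had signals of 3559, 3589 and 3728 with IGF-1, against 2999.8, 3649.8 and 3476 without. The groups overlapped and the difference was 0.11 ± 0.09 (adjusted p = 0.478). Ndufa3, also of the membrane arm, had 1565, 1420.5 and 1523 with IGF-1 and 1498, 1672 and 1534 without, a difference of -0.06 ± 0.09 (adjusted p = 0.691). Of the other 5 subunits of this part, Ndufc1 (0.15), Ndufs5 (0.09), Ndufa13 (0.06) and Ndufa8 (0.02) were higher, and Ndufa10 (-0.05) was lower. None of these 5 passed, and the median of the 8 was 0.08.

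In the distal membrane arm none of 11 tested subunits passed the threshold, beside 15.1% of all genes tested. At an unadjusted p below 0.05 in limma 3 were higher, beside 14.4% of all. By sign alone 10 of the 11 were higher with IGF-1, beside 48.7% of all. For 6 of the 11 every IGF-1 array lay above every control array, beside 17.1% of all genes. The median difference was 0.18 and the range -0.12 to 0.32. Ndufb9, a LYR-family subunit, had signals of 2473, 1985 and 2442 in IGF-1 cells and 1866, 2013 and 1847 in control cells. IGF-1 replicate 2 lay below control replicate 2, so the groups overlapped, and the difference was 0.26 ± 0.10 (adjusted p = 0.113). Its second tested probe set differed by -0.07.

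Further members of the distal arm with groups apart were Ndufb8 (0.32 ± 0.10, adjusted p = 0.0685), Ndufb2 (0.31 ± 0.11, adjusted p = 0.0859), Ndufb10 (0.20), Ndufab1 (0.18), Ndufb6 (0.17) and Ndufb3 (0.13). Ndufab1 is the mitochondrial acyl carrier protein, which also serves fatty acid and lipoic acid synthesis in mitochondria. Ndufb11, encoded on the X chromosome, was the 1 lower member. It had 1487, 1361 and 1438 with IGF-1 and 1398, 1733 and 1539 without, a difference of -0.12 ± 0.10 (adjusted p = 0.461). Ndufa4 carries a complex I name but is now counted with complex IV. Its difference was -0.13 ± 0.10 (adjusted p = 0.408).

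None of the 4 tested assembly factors passed, and 2 had an unadjusted p below 0.05 in limma, 1 in each direction. Among all genes tested 15.1% passed, and 30.5% had such an unadjusted p in either direction. Ndufaf3 and Ndufaf4 work together in building the ubiquinone module. Ndufaf3 had signals of 254, 249 and 242 in IGF-1 cells, against 212, 205 and 185 in control cells. Its groups were apart, with a difference of 0.29 ± 0.10 (adjusted p = 0.0792). Ndufaf4 had 117, 114 and 159 with IGF-1 and 194, 176 and 153 without. Here IGF-1 replicate 3 exceeded the lowest control, and the difference was -0.39 ± 0.14 (adjusted p = 0.0963). It passed without that array (-0.53, adjusted p = 0.0455), but not with any other single array left out (highest adjusted p 0.262).

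Ndufaf1 belongs to the complex that assembles the membrane arm. It had 205.7, 200.002 and 188 with IGF-1 and 220.1, 181 and 169.97 without, a difference of 0.06 ± 0.12 (adjusted p = 0.778). Ndufaf5, which modifies an arginine of Ndufs7, was dim, at 61.1, 71.7 and 71.9 with IGF-1 and 63.8, 47.7 and 50.2 without. Its groups overlapped and the difference was 0.28 ± 0.15 (adjusted p = 0.253). Ndufaf7, a methyltransferase of mitochondria, was below the signal filter, at 38.01, 46.9 and 51.01 with IGF-1 and 53.1, 30.5 and 74.99 without. Of 9 tested assembly factors with other names, such as Acad9, Ecsit and Timmdc1, 0 rose and 0 fell, and the median was -0.02. In limma 1 of the 9 had an unadjusted p below 0.05, beside 30.5% of all genes tested.

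Probe sets of the same gene gave a second look at 17 genes with 2 or more tested probe sets. In 11 of them all probe sets were higher with IGF-1, in 1, Ndufa3, all were lower, and in 5 the signs were mixed. The mixed genes were Ndufc2, Ndufb9, Ndufb5, Ndufab1 and Ndufb11. Of all 67 tested probe sets that named 1 Nduf gene, 52 were higher and 5 passed.

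**Figure D4:**
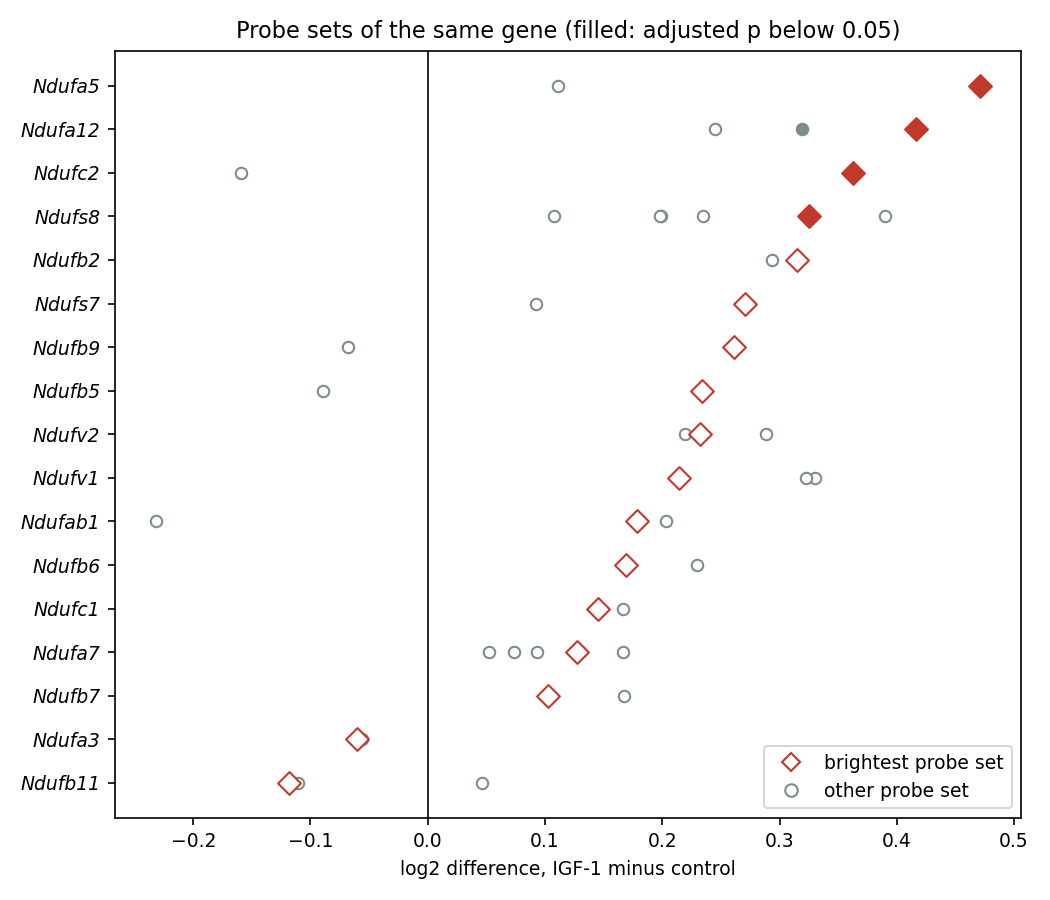
Log2 difference (IGF-1 minus control, horizontal axis) of every tested probe set of the 17 complex I genes with 2 or more; diamonds are the brightest probe set of a gene, circles the others, and filled symbols passed the test. Ndufa12 has 2 filled symbols, and the circle of Ndufc2 lies at -0.16, left of zero.

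By array, the median deviation of the 34 subunits from each gene's mean over all arrays (log2) was 0.11, 0.04 and 0.09 on IGF-1 arrays 1, 2 and 3, against -0.09, -0.02 and -0.11 on control arrays 1, 2 and 3. The 3 IGF-1 arrays were thus above the 3 control arrays, and the closest were IGF-1 2 and control 2. This order was not particular to complex I. The 39 genes of complexes II to V had medians of 0.09, 0.03 and 0.07 on IGF-1 arrays, against -0.13, -0.01 and -0.04 on control arrays. Over all genes tested the same medians lay between -0.01 and 0.02. The 4 assembly factors showed no such order, with 0.05 to 0.10 on IGF-1 arrays and -0.19 to 0.12 on control arrays.

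**Figure D5:**
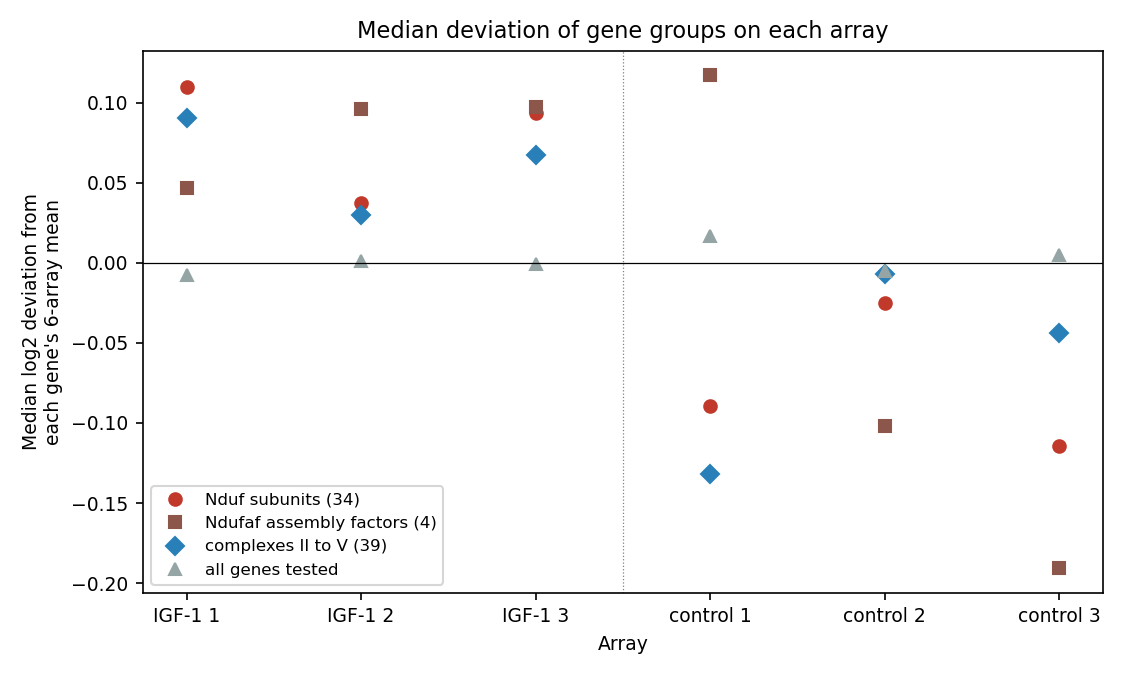
Median log2 deviation from each gene's mean over 6 arrays (vertical axis) on each IGF-1 array, left, and each control array, right, for 34 Nduf subunits, 4 Ndufaf assembly factors, 39 genes of complexes II to V and all genes tested. Subunits and genes of complexes II to V lie above zero on the 3 IGF-1 arrays and below it on the 3 control arrays, while all genes stay near zero.

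The other complexes of the chain were read in the same fit. Of 39 tested genes of complexes II to V 9 rose, 0 fell and 30 did not pass (23.1% called), with a median of 0.13. Among all genes tested 15.1% passed, 7.05% higher and 8.05% lower. The count of 9 became 5 when control 3 or a single IGF-1 array was left out. In 16 of the 39 genes every IGF-1 array lay above every control array, and in 2 below, beside 17.1% and 18.2% of all genes tested. Complex III held 6 of the 9 genes that rose, of 9 tested (66.7% called). They included Uqcrq (0.59 ± 0.09), Uqcr10 (0.55 ± 0.11), Uqcr11 (0.50 ± 0.10) and Uqcrb (0.37 ± 0.08), accessory subunits of the complex that takes electrons from the ubiquinol made by complex I. Among complexes II, IV and V 1 gene each rose, and the largest difference was that of Atp5g1 (0.87 ± 0.09), a gene for the ring subunit c of ATP synthase. The other Atp5g genes, Atp5g2 (0.15, adjusted p = 0.247) and Atp5g3 (0.05, adjusted p = 0.743), did not pass. Of 10 tested regulators of mitochondrial gene expression, among them Nrf1, Gabpa, Yy1 and Tfam, 0 rose and 0 fell, with a median of -0.05. In limma 0 of these 10 had an unadjusted p below 0.05, beside 30.5% of all genes tested. Ppargc1a and Ppargc1b, coactivators of mitochondrial biogenesis, lay below the signal filter.

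Arrays correlated at 0.978 to 0.984 within groups and 0.956 to 0.965 between them. Markers listed for the labelled cell type were present, with 9 of 9 measured plasma cell markers above the filter, among them Sdc1, Irf4 and Xbp1. Their summed signal was 12819 to 13370 on IGF-1 arrays, against 13660.1 to 14768 on control arrays, without overlap. Of the 9, 7 were lower with IGF-1, 4 had every IGF-1 array below every control array, and 2 fell past the threshold, Tnfrsf17 (-0.51, adjusted p = 0.00801) and Slamf7 (-0.62, adjusted p = 0.0127). Among all genes tested, 18.2% had groups apart in this direction and 8.05% fell. None of 5 measured T cell markers and 1 of 5 B cell markers was above the filter. Myeloid markers gave signal too, with 9 of 9 neutrophil and 8 of 10 macrophage markers above the filter. The summed signals of these myeloid lists were 23301 to 25932 on IGF-1 arrays, against 25112.5 to 29987 on control arrays for neutrophil markers, and 4909.7 to 6775 on IGF-1 arrays, against 5822 to 7865 on control arrays for macrophage markers. These sums overlapped between the groups. Of 9 neutrophil markers 8 were lower with IGF-1, 3 had groups apart and 1, Ltf, fell (-0.60, adjusted p = 0.0115). Of 8 tested macrophage markers 4 fell and 1 rose, beside 8.05% and 7.05% of all genes tested. The falls included Fcgr3 (-1.26, adjusted p = 0.00687) and Csf1r (-1.02, adjusted p = 0.00594), and Cd68 rose (0.41, adjusted p = 0.0118). The median of these 8 was -0.60, with 7 lower and 1 higher, larger in size than any difference of a complex I gene. The part of these markers in the differences of complex I transcripts was not tested.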

How the data were processed

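The deposited table holds linear intensity values that the authors obtained with the MAS5 method of the GCOS software, as the submitters' processing notes record. For its versions and scaling target, the sources used here give nothing. After trimming 2% of probe sets at each end, array means ran from 149.3 to 149.4, so the arrays share a common scale and each difference is relative to total signal. Per the labels' protocols, cRNA was primed from oligo-dT, which favours 3′ ends.

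The 6 arrays held 3 of each group. Of 22690 probe sets, 64 were controls, 20380 carried 1 gene symbol in the platform annotation, 691 several and 1555 none. All 39 Nduf symbols matched RefSeq (GRCm38.p6) by gene identifier. Signals were tested as log2(signal + 15.57), the 25th percentile as pseudocount, for probe sets with a mean above the median, with limma 3.58.1 in R 4.3.3 (lmFit, eBayes with trend, two-sided, Benjamini-Hochberg over 11313 probe sets). Fold changes are on this scale, which understates dim genes. The fit was tested on simulated data. The number of arrays limits the precision. Python 3.11.15 was used for tables (pandas 2.3.3 with numpy 2.4.6) and plots (matplotlib 3.10.9).

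Members, lists and tests were chosen with earlier results of these data known. Genes given array by array were those past the threshold, the core subunits, the assembly factors, the 4 brightest and the 3 with the largest rise and fall. Promoter windows used the start farthest upstream, and all 1243 overlapping windows of opposite strands were reverse complements of each other. Alternatives changed the pseudocount, filter, normalization, variance model and probe sets, used the replicate number as a block, or left out each array.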

Additional observations from a re-analysis of the deposited data

How the results depend on the processing

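Ndufa12 passed under the 15 of 16 alternatives that could test it, and had no tested probe set once the _x_at and _s_at types were left out. The count of 4 subunits past the threshold became 1 without a filter, 2 with quantile normalization and 2 without the intensity trend. It became 2 with the mean of probe sets per gene and 21 with scaling to the hybridization controls. Without probe sets of the _x_at and _s_at types it was 2, Ndufa5 (adjusted p = 0.0196) and Ndufs7 (adjusted p = 0.0480). Of these, Ndufs7 had not passed in the main fit. With 1 array left out the count was 1 to 3, with 1 left without control 2, IGF-1 2 or IGF-1 3 and 2 without IGF-1 1. The assembly factors kept a count of 0 except for 1 rise with hybridization control scaling, and 0 to 1 with 1 array left out. That scaling shifted the median of all probe sets by 0.26, gave 2996 calls in place of 1709, with 91.8% higher in place of 45.2%, 25 calls in complexes II to V and a median of 0.42 for complex I genes. The cause was not tested. There were 946 calls over all probe sets without a filter, which doubles the probe sets tested, and 897 to 1451 with 1 array left out. Complexes II to V had 5 calls without the intensity trend and 5 to 6 with 1 array left out. The median of complex I genes was 0.11 to 0.18 with 1 array left out, highest without IGF-1 2. Signs turned with hybridization control scaling for Ndufa3 (0.23), Ndufb11 (0.17), Ndufs1 (0.13) and Ndufs3 (0.14), none past the threshold. Ndufc2 was -0.16 without the _x_at and _s_at probe sets, which leaves its other probe set, and Ndufaf1 was -0.011 without control 3, in a range of -0.011 to 0.16 with 1 array left out. With the replicate number as a block, 4 subunits and 1732 probe sets passed. Deviations of same-numbered arrays correlated at 0.12, -0.03 and 0.13, so the numbers were not taken as pairs. Of 270 values of single genes under alternatives, 232 kept sign and call. Small differences could not be resolved with 3 arrays a group, in dim genes or in brighter subunits. The median SE of the subunits was 0.099, and the largest difference in size of a subunit that did not pass was 0.32.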

Other observations

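The 7 probe sets that name several genes, at least 1 of them beginning with Nduf, were tested but given to no gene. Of these, 2 rose with IGF-1 and 5 did not pass, beside 15.1% of all probe sets tested that passed. The probe set of Ndufa11 and Ndufa11b rose by 0.46 on the log2 scale (adjusted p = 0.00975). A probe set of Ndufb4, Ndufb4b and Ndufb4c rose by 0.48 (adjusted p = 0.0186), above the 0.47 of Ndufa5. The other probe set of these Ndufb4 genes did not pass (0.10, adjusted p = 0.604). Ndufa11 and Ndufb4 are therefore missing from the counts by part of the enzyme. The median SD of log2 signals within groups was 0.12 for the 34 subunits, beside 0.15 for all genes tested. Mean signals of the subunits ran from 127 to 3500, whereas all genes tested reach down to the signal filter. The sets were not matched for brightness, so the lower SD cannot be taken as a trait of complex I.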
